A study of Mus musculus with 12 samples.

Results

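The variable (V) segments of the T cell receptor α and β chains were followed across 12 bulk RNA-seq libraries of mouse Th9 cells. Members were all genes of the deposited table whose symbol begins with Trav or Trbv, 1 row per gene identifier, which gave 147 of 32051 genes, 121 of the α family and 26 of the β family. Th9 cells are CD4+ helper T cells that secrete interleukin-9. They were polarized from naive CD4+ T cells of the spleen of C57BL/6J mice, 6 to 8 weeks old, with antibodies to CD3 and CD28, 10 ng/mL IL-4, 1 ng/mL TGF-β and antibodies that block IL-12 and IFN-γ, and RNA was taken on day 4. All 4 groups shared this treatment, and each had 3 libraries. The DMSO group received solvent. The EpA group received 10 μM endomelipeptide A, a cyclic peptide. The fatostatin group (DMSO fato in the labels) received 5 μM fatostatin, an inhibitor of the lipid-synthesis regulators SREBP. The EpA + fatostatin group (EpA fato) received both. A figure legend of the study calls its sequenced Th9 samples independent, but no source used here says whether replicates were separate mice or cultures, so the p-values measure the spread between these libraries, which may be technical. Values are FPKM, reads per kilobase of gene length scaled to the depth of the library.

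Each developing T cell joins 1 V segment to short downstream segments by V(D)J recombination, and transcribes the joined V segment with the constant gene. Many clones share a V segment and differ in the joint and in the partner chain, so V segment use describes a population and does not mark single clones. In a CD4+ population of an inbred mouse many segments are in use at once, and the composition over segments, the repertoire, is set in the thymus and by expansion of clones afterwards. Older names in flow cytometry follow families: Trav14 segments encode Vα2, Trbv12-1 and Trbv12-2 encode Vβ5, and Trbv13 segments encode Vβ8. A change common to all segments moves their levels and leaves their shares in place, whereas a change in the use of some segments moves shares. Each segment was therefore compared both in FPKM and as its share of the summed FPKM of its family.

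3 segments stood far above all others, Trbv12-2 in the β family and the pair Trav14d-1 and Trav14n-1 in the α family. Their V exons are shown because reads can be assigned to them only as far as these sequences differ from those of their relatives. The β exons lie on the forward strand of GRCm38 at chr6:41119072-41119364 (Trbv12-2) and chr6:41113775-41114067 (Trbv12-1), each 293 bases long, and capitals mark the 32 positions at which these differ (89.1% identity).
Trbv12-2: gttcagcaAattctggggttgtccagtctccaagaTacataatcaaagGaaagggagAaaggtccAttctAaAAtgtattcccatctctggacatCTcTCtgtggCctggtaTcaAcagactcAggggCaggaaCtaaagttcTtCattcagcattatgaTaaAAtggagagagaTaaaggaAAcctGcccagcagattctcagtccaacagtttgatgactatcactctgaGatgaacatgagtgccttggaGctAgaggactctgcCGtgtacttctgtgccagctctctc
Trbv12-1: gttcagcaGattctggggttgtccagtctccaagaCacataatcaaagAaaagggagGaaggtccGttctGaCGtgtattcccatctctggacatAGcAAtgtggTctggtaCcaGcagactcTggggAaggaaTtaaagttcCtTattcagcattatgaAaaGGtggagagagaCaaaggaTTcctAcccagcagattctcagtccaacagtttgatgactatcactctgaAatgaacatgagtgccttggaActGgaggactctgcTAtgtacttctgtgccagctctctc

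The α exons of Trav14d-1 (chr14:52855875-52856166) and Trav14n-1 (chr14:53166887-53167178), both on the forward strand, are 292 bases long and do not differ at any position, and both annotated transcripts of one gene, 415 and 340 bases long, occur unchanged in the other. They belong to duplicated blocks of the Trav locus, whose copies carry the letters d and n. Capitals mark the 9 positions at which the exon differs, over these 292 bases, from that of Trav14-3 (chr14:53763403-53763694), the most abundant other Trav14 segment.
Trav14d-1 and Trav14n-1: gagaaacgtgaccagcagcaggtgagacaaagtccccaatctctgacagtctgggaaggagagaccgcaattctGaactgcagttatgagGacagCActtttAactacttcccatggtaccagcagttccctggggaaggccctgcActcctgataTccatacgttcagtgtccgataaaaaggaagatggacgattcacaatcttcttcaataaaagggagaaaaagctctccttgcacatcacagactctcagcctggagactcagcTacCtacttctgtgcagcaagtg
Trav14-3: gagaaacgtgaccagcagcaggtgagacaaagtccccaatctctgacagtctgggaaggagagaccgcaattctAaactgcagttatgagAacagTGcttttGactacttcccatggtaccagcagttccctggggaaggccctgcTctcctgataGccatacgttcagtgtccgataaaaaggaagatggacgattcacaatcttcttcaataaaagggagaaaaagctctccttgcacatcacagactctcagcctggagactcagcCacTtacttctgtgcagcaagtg

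Reads on genes, recovered from FPKM and gene length, numbered 36019739 to 43656682 per library. Of these, 3671 to 5364 reads per library fell on Trbv segments and 2776 to 33442 on Trav segments, of which 1342 to 1779 fell outside the Trav14d-1 and Trav14n-1 pair. All 1198 values above 0 of members came out as whole reads within 0.05. All 8 of the T cell and Th9 genes checked were measured, including Cd4 (78.1 to 92.2 FPKM) and Il9 (51.0 to 855 FPKM). Zbtb16, the defining factor of invariant T cells, had at most 0.0286 FPKM, the B cell markers Ms4a1 and Pax5 at most 0.0731 FPKM and the macrophage receptor Csf1r at most 0.0465 FPKM. Other markers on the same lists were measured at higher levels, Ighm at 20.1 to 46.6 FPKM and Cd79b at 4.66 to 7.43 FPKM (B cells), Cxcr6 at 2.34 to 6.41 FPKM (NK and invariant T cells) and Cd68 at 1.06 to 2.33 FPKM (myeloid cells), and whether other cells were present was not tested. The constant genes Trac and Trbc1 were not analysed here, and Trbc2 stands for the β constant region.

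The β repertoire was led by 1 segment in every library. Trbv12-2 was at 164, 169 and 168 FPKM in the DMSO libraries, at 131, 135 and 134 FPKM in the EpA libraries, at 166, 177 and 182 FPKM in the fatostatin libraries and at 146, 145 and 142 FPKM in the EpA + fatostatin libraries. It held 54.1% to 58.9% of the summed Trbv FPKM, and its mean level was 5.42 times that of the next segment. That next segment was Trbv31 (Vβ14), which lies beyond the constant genes in the opposite orientation and joins by inversion, with a mean share of 10.5% and levels between 22.4 and 35.9 FPKM. Trbv13-2 (4.15%), Trbv3 (4.03%), Trbv1 (3.57%), Trbv19 (2.95%), Trbv15 (2.72%), Trbv20 (2.49%), Trbv2 (2.29%) and Trbv16 (1.82%) completed the 10 highest, which together held 91.4% of the family. The other Vβ5 segment, Trbv12-1, was at 0.850 to 2.95 FPKM with a mean share of 0.647%. Of the 26 Trbv genes, 21 had a mean of at least 0.1 FPKM and were tested, and 4 had no more than 3 reads in any library, which is the level read here as not detected. All 4 of these are annotated as pseudogenes.

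**Figure D1:**
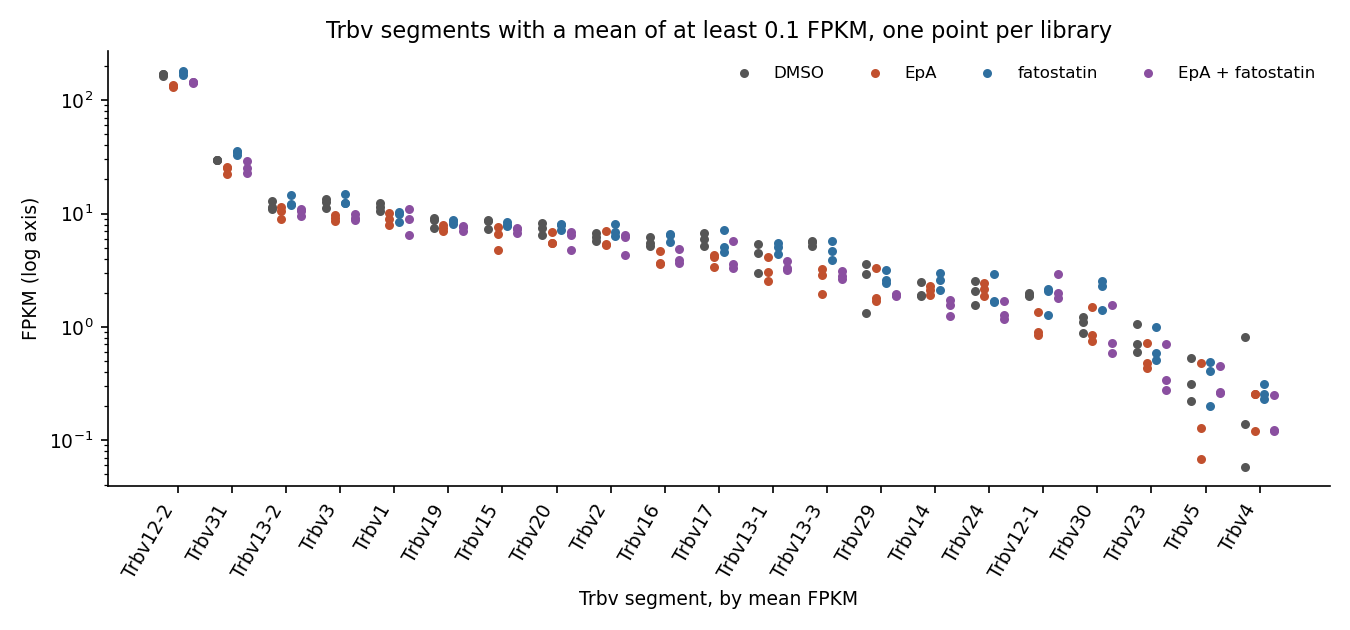
FPKM (vertical log axis) of the 21 tested Trbv segments in each of the 12 libraries, 1 point per library, coloured by group and ordered by mean. Trbv12-2 stands above all others in every library at 131 to 182 FPKM, followed by Trbv31 at 22.4 to 35.9 FPKM.

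The α family was led by the pair of identical copies, and there the libraries differed widely. Trav14d-1 was at 534, 261 and 343 FPKM in the DMSO libraries, at 220, 53.0 and 234 FPKM in the EpA libraries, at 46.5, 585 and 1149 FPKM in the fatostatin libraries and at 261, 143 and 367 FPKM in the EpA + fatostatin libraries. Trav14n-1 was at 82.0, 802 and 69.2 FPKM with DMSO, at 80.4, 33.7 and 83.1 FPKM with EpA, at 68.5, 99.3 and 744 FPKM with fatostatin and at 64.1, 1042 and 102 FPKM with both compounds. The highest library exceeded the lowest 24.7 times for Trav14d-1 and 30.9 times for Trav14n-1. For Trav14d-1 both ends were fatostatin libraries, and for Trav14n-1 they were EpA replicate 2 and EpA + fatostatin replicate 2. The ratio of Trav14d-1 to Trav14n-1 ran from 0.138 to 6.51 over the libraries. Their sum varied as well, 21.8 times between the lowest library at 86.7 FPKM (EpA replicate 2) and the highest at 1893 FPKM (fatostatin replicate 3), so the libraries differed in the total of the copies as well as in its division between them. Together they held 49.8% to 94.9% of the summed Trav FPKM.

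All other Trav segments were low, and their sum varied far less. The third segment, Trav3-3, had a mean of 6.41 FPKM, and Trav15-2-dv6-2 (4.23 FPKM), Trav17 (3.77 FPKM), Trav21-dv12 (3.67 FPKM), Trav5-4 (3.66 FPKM), Trav14-3 (3.47 FPKM), Trav13-1 (3.08 FPKM) and Trav4-4-dv10 (2.85 FPKM) followed among the 10 of highest mean share. The other 6 Trav14 segments had means of 0.0131 to 3.47 FPKM. Without the pair the Trav sum was 108 ± 3.64 FPKM with DMSO, 92.1 ± 5.13 FPKM with EpA, 104 ± 1.05 FPKM with fatostatin and 89.3 ± 2.63 FPKM with both (SD, n = 3 each), a range of 1.30 times over all 12 libraries. The 6 libraries with EpA, at 86.3 to 97.6 FPKM, all lay below the 6 without it, at 103 to 112 FPKM, and the means with EpA were 85.1% of DMSO and, with fatostatin, 86.1% of fatostatin alone. Of the 121 Trav genes, 79 were tested, 40 were not detected by the same limit of 3 reads, and 17 of these had no read at all.

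**Figure D2:**
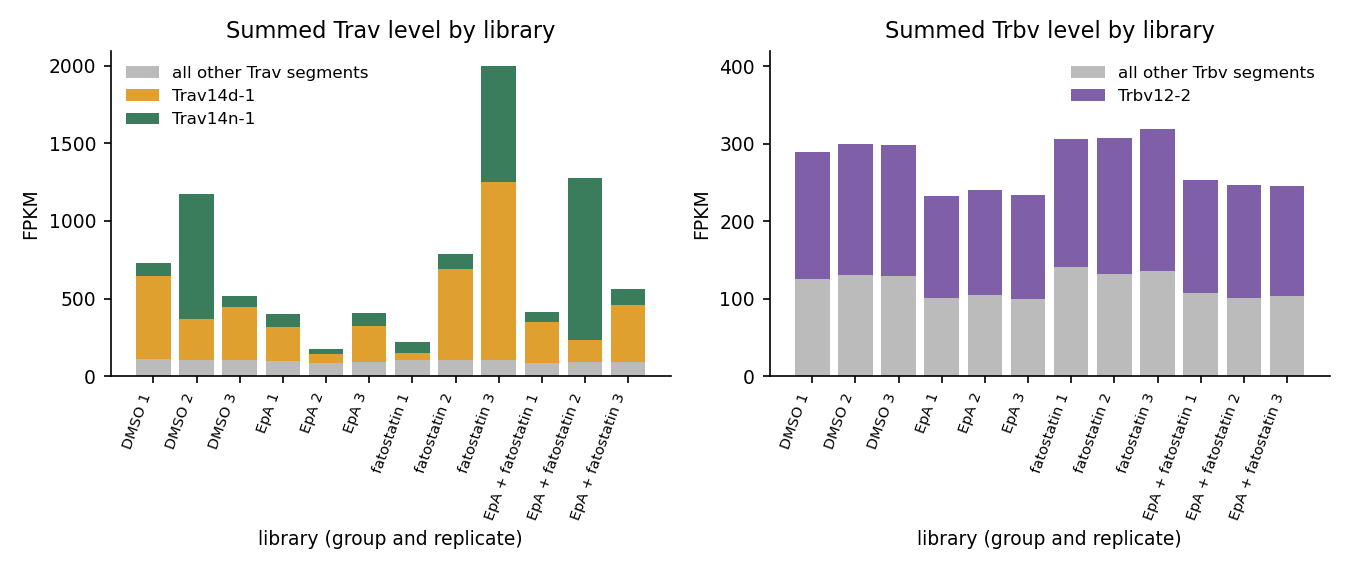
Summed FPKM of the Trav segments (left) and of the Trbv segments (right) in each of the 12 libraries, as stacked bars. On the left Trav14d-1 and Trav14n-1 make the difference between 174 and 1996 FPKM while all other Trav segments stay between 86.3 and 112 FPKM; on the right every bar without EpA is above every bar with EpA.

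The level of the pair also differed from that of other copied segments. In the reference transcripts 40 of the 121 Trav genes had every 50-base window present in another gene, against 0 of the 26 Trbv genes. Of those 40, 30 were not detected, and the 38 besides Trav14d-1 and Trav14n-1 summed to 2.30 FPKM, with Trav14d-2 the highest at 0.880 FPKM. How the authors' counting treated reads that fit more than 1 gene is not given in the sources used here, so values of copied segments are uncertain. The spread of reads over replicates beyond counting error was measured as the Poisson chi-square per degree of freedom within groups, which is near 1 for counting error alone. It was 7753 for Trav14n-1 and 2982 for Trav14d-1, and 0 of 13628 other genes exceeded either value. For the remaining tested segments it was at most 11.7 in the Trav family (Trav6-6) and 3.82 in the Trbv family. The family medians were 2.23 and 1.62, beside 2.52 and 2.42 for other genes in the same ranges of total reads. Trbv12-2 itself was at 2.16. What set the level of the pair in a library was not tested.

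The labels give the strain C57BL/6J for all 12 libraries and no receptor transgene. The study's methods name both C57BL/6J and CD45.1+ OT-II mice as sources of naive CD4+ T cells for its experiments. OT-II mice carry a transgenic receptor of Vα2 and Vβ5, the families of the leading segments here. Beside Trbv12-2 the other Trbv segments were expressed in every library at 99.5 to 140 FPKM in sum. Of the 14 Trbj (joining) segments all but Trbj1-1 had reads in every library, led by Trbj2-5 with a mean of 12.7% of the summed Trbj FPKM. Whether any library contained transgenic cells was not tested.

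The first question of the design was how EpA acted, alone and with fatostatin. On the level scale, that is log2(FPKM + 0.1), the V segments called for EpA, without and with fatostatin, were all lower. Over both families together the share called lower by adjusted p alone was below that of all genes, and it was above it for the β family and for calls that also passed a fold limit. The comparison of EpA with DMSO called 11 of 100 tested segments lower and 0 higher at an adjusted p below 0.05 (limma with Benjamini-Hochberg adjustment over 13733 genes), where 13.1% of all genes were called lower and 14.3% higher. Of the β segments 7 of 21 were lower, and of the α segments 4 of 79. The comparison of EpA + fatostatin with fatostatin, which shares no library with the first, again called 11 segments lower and 0 higher, 8 of 21 Trbv and 3 of 79 Trav, beside 13.3% of all genes lower and 16.2% higher. With a fold of at least 1.5 required as well, 5 segments were lower in each comparison, where 1.94% and 1.86% of all genes were. At an unadjusted p below 0.05, 18 and 21 of the 100 segments passed in either direction, beside 5151 and 5432 of the 13733 genes.

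Most β segments lay lower without each being called. In the comparison of EpA with DMSO 19 of the 21 Trbv segments had a lower mean log2 level and the median difference was -0.32, whereas the median of all genes was 0.00. In the comparison of EpA + fatostatin with fatostatin 20 of 21 were lower, with a median of -0.43, beside 0.01 for all genes. All 3 EpA values lay below all 3 DMSO values for 8 of 21 Trbv segments, where this held for 20.8% of all genes, and all 3 EpA + fatostatin values lay below all 3 fatostatin values for 12 of 21, where 19% of all genes did so. The same held for 11 and 8 of the 79 Trav segments, that is 13.9% and 10.1%, below the shares of all genes. The 79 Trav segments had medians of -0.29 and -0.28, with 55 and 53 lower. The summed levels showed the same direction. The Trbv sum was 295 ± 5.50 FPKM with DMSO and 235 ± 4.05 FPKM with EpA, that is 79.6% of it, and 311 ± 6.90 FPKM with fatostatin and 249 ± 3.61 FPKM with both, that is 79.9%. The groups did not overlap, since the 6 libraries without EpA lay between 289 and 319 FPKM and the 6 with EpA between 232 and 253 FPKM. With 3 libraries against 3 an exact two-sided permutation test cannot go below p = 0.1, so the sums are given without a test. Fewer cells of a type and less RNA per cell cannot be told apart in bulk samples.

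Trbv12-2 fell by 0.32 (SE 0.0307, adjusted p = 1.7e-05, limma) on the log2 scale with EpA against DMSO and by 0.28 (adjusted p = 5.0e-05, limma) with EpA + fatostatin against fatostatin. Trbv31 fell by 0.29 and 0.43 (adjusted p = 0.016 and 0.0014, limma). Without EpA replicate 3 the first of these had an adjusted p of 0.0648 (limma). Trbv3 fell by 0.43 and 0.49, and Trbv16 by 0.50 and 0.58. Trbv13-3 (Vβ8.1) had the largest fall among the β segments called for EpA against DMSO. It went from 5.62, 5.69 and 5.14 FPKM with DMSO to 3.25, 2.88 and 1.94 FPKM with EpA and from 5.70, 3.91 and 4.72 FPKM with fatostatin to 2.63, 3.11 and 2.80 FPKM with both. In neither comparison of Trbv13-3 did the groups overlap, and the differences were -1.03 (adjusted p = 9.6e-04) and -0.71 (adjusted p = 0.0082, limma). Of the other Vβ8 segments, Trbv13-1 had differences of -0.39 and -0.53 that were not called, and Trbv13-2 had differences of -0.19 and -0.31, of which the second was called.

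Beside Trbv13-2, the β segments called in 1 comparison only were Trbv12-1 (-0.86) and Trbv15 (-0.40) for EpA against DMSO, and Trbv14 (-0.72) and Trbv30 (-1.13) for EpA + fatostatin against fatostatin. A call in one comparison and not in the other does not show that the effects differed. The test of that difference, the interaction of the compounds, called 0 of 100 segments, where 0.0437% of all genes were called, and 5 segments had an unadjusted p below 0.05, beside 1083 of 13733 genes. Trbv12-1 had the smallest unadjusted p of these, with a difference between the effects of 1.15 on the log2 scale and an adjusted p of 0.36 (limma). Among Trav segments, Trav15-2-dv6-2 fell by 0.55 and 0.32 and Trav15-1-dv6-1 by 0.61 and 0.73 in the 2 comparisons. Trav13-4-dv7 (-0.84) and Trav9-2 (-0.73) were called only for EpA against DMSO, and Trav14-3 (-0.61) only for EpA + fatostatin against fatostatin. Names with dv also carry a δ segment number, and the part of δ chains in those levels was not tested. Trav14d-1 and Trav14n-1 were called in no comparison. Their differences of -1.38 and -1.44 between EpA and DMSO had SEs of 0.99 and 1.23 on the log2 scale (adjusted p = 0.35 and 0.43, limma).

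Adjusted p-values near the limit did not all hold over the alternatives, which are 21 for each of these calls and include leaving out each library. For EpA against DMSO the call of Trbv15 was lost in 15 of them (10 left-out libraries), that of Trav9-2 in 13 (9) and that of Trav15-1-dv6-1 in 12 (8), with adjusted p-values of up to 0.147, 0.151 and 0.158 (limma). The difference of Trbv15 was -0.21 without EpA replicate 2 and -0.54 without EpA replicate 1. Trbv12-1 lost its call without EpA replicate 2 or 3. For EpA + fatostatin against fatostatin the call of Trav15-2-dv6-2 was lost in 9 (5 left-out libraries), that of Trbv13-2 in 7 (3), that of Trbv30 in 6 (4) and that of Trav15-1-dv6-1 in 5 (4), with adjusted p-values of up to 0.247, 0.124, 0.102 and 0.0746 (limma). Trav14-3 lost its call without fatostatin replicate 1 or EpA + fatostatin replicate 2. Trbv12-2, Trbv3 and Trbv13-3 stayed below 0.05 in both comparisons under all alternatives run, as did Trav15-2-dv6-2 and Trav13-4-dv7 in the first and Trbv16 and Trbv31 in the second.

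**Figure D3:**
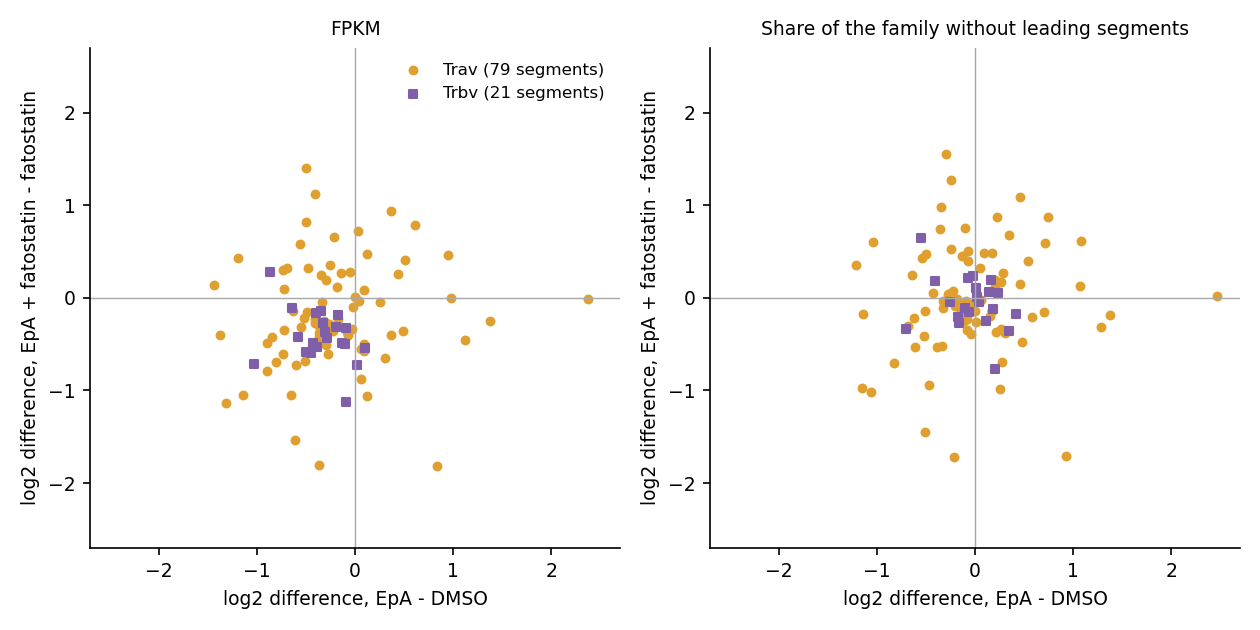
Log2 difference of each of the 100 tested segments between EpA and DMSO (horizontal) and between EpA + fatostatin and fatostatin (vertical), for FPKM on the left and for the share of the family on the right, where shares were taken of family sums without Trav14d-1, Trav14n-1 and Trbv12-2. Trbv segments (squares) sit below 0 on both axes for FPKM, 18 of 21 of them, and spread around 0 for shares.

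Trbc2 and some of the CD3 chain genes were lower with EpA as well. Trbc2, which encodes a constant region of the β chain, was at 469 ± 11.7 FPKM with DMSO and 342 ± 6.79 FPKM with EpA, and at 477 ± 14.7 FPKM with fatostatin and 358 ± 13.9 FPKM with both. It fell by 0.46 and by 0.42 on the log2 scale (adjusted p = 1.9e-06 and 3.0e-06, limma). The CD3 chains, which carry the signal of the receptor into the cell, fell too: Cd3e by 0.33 and 0.34, Cd3d by 0.24 and 0.24 and Cd3g by 0.27 and 0.37, whereas Cd247, which encodes the ζ chain, had differences of -0.05 and -0.04 that were not called. Of the 6 measured genes of the list of constant and CD3 chains, which also holds Cd4, 4 fell and Cd4 rose, by 0.15 and 0.10, in both comparisons, where 13.1% and 13.3% of all genes were called lower and 14.3% and 16.2% higher. The ratio of summed Trbv FPKM to Trbc2 FPKM was 0.630 ± 0.0256 with DMSO, 0.689 ± 0.0258 with EpA, 0.652 ± 0.0106 with fatostatin and 0.696 ± 0.0378 with both. Of 24 genes of proximal receptor signaling, 15 fell and 1 rose in each of the EpA comparisons, beside the same shares of all genes, with median differences of -0.16 and -0.15. The kinase gene Lck was among those that fell in both.

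Markers of other cells moved as well, and their counts stand beside 13.1% and 13.3% of all genes called lower and 14.3% and 16.2% higher in the 2 comparisons. The γδ T cell list, of which 9 genes were tested, had 6 and 5 genes lower and 0 higher in the 2 comparisons, and its summed level was 134 to 146 FPKM with DMSO, 89.4 to 98.1 FPKM with EpA, 116 to 120 FPKM with fatostatin and 75.5 to 76.6 FPKM with both. Trgc2, a γ chain constant gene, went from a range of 53.6 to 58.9 FPKM with DMSO to 32.5 to 40.3 FPKM with EpA, and from 43.4 to 46.1 FPKM with fatostatin to 27.7 to 30.4 FPKM with both. The B cell list summed to 52.6 to 53.7 FPKM with DMSO, 28.6 to 29.6 FPKM with EpA, 52.1 to 52.3 FPKM with fatostatin and 26.9 to 27.5 FPKM with both. Most of that sum was Ighm, the μ heavy chain gene, which fell by 0.99 and 1.11, and 2 of 4 tested genes were lower in each comparison. Cd8a fell by 1.08 and 1.46, from 1.81 ± 0.182 to 0.802 ± 0.0328 FPKM against DMSO, and Cd8b1 was at 6.40 to 8.61 FPKM in all libraries. Of the NK and invariant T cell list 3 genes were tested, of which 2 fell and 1 rose in both comparisons. Of the myeloid list 3 were tested, and the summed level of the list was 1.56 to 3.405 FPKM in all libraries, with 1 gene higher for EpA against DMSO. The part of these cells in the V segment levels was not tested.

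The central question was whether the composition of the repertoire followed the compound or the replicate. The distance between 2 libraries was taken as the summed absolute difference of their segment shares divided by 2, in percentage points, so that 0 means identical composition. For the Trbv family the distance was 3.72 on average over the 12 pairs of the same group, 4.09 over the 18 pairs that shared only a replicate number and 4.02 over the 36 pairs that shared neither. All pairs fell between 2.26 and 6.82, and the nearest library was of the same group for 3 of 12 libraries and of the same number for 3. For the Trav family the same means were 36.7, 30.9 and 32.8, with a range of 3.59 to 70.5, and the nearest library was of the same group for 2 of 12 libraries and of the same number for 4. These distances are a description, since pairs share libraries, and no test was run on them. The counts of nearest libraries moved with single libraries. For Trbv the count of the same group was 1 without fatostatin replicate 2 or 3 and 5 without EpA replicate 1, and that of the same number was 0 without DMSO replicate 1 and 1 without EpA replicate 1. For Trav the count of the same group was 0 without EpA replicate 1 or 3 and 4 without DMSO replicate 3, and that of the same number was 2 without DMSO replicate 2 or EpA + fatostatin replicate 2. Over segments averaging 1 FPKM or more the counts of same group and same number were 5 and 1 for Trbv and 4 and 2 for Trav, so no order between group and replicate was read from them. When the family sums were taken without the leading segments, the Trav means were 17.9, 17.5 and 17.6 and the Trbv means 7.25, 7.68 and 7.72.

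**Figure D4:**
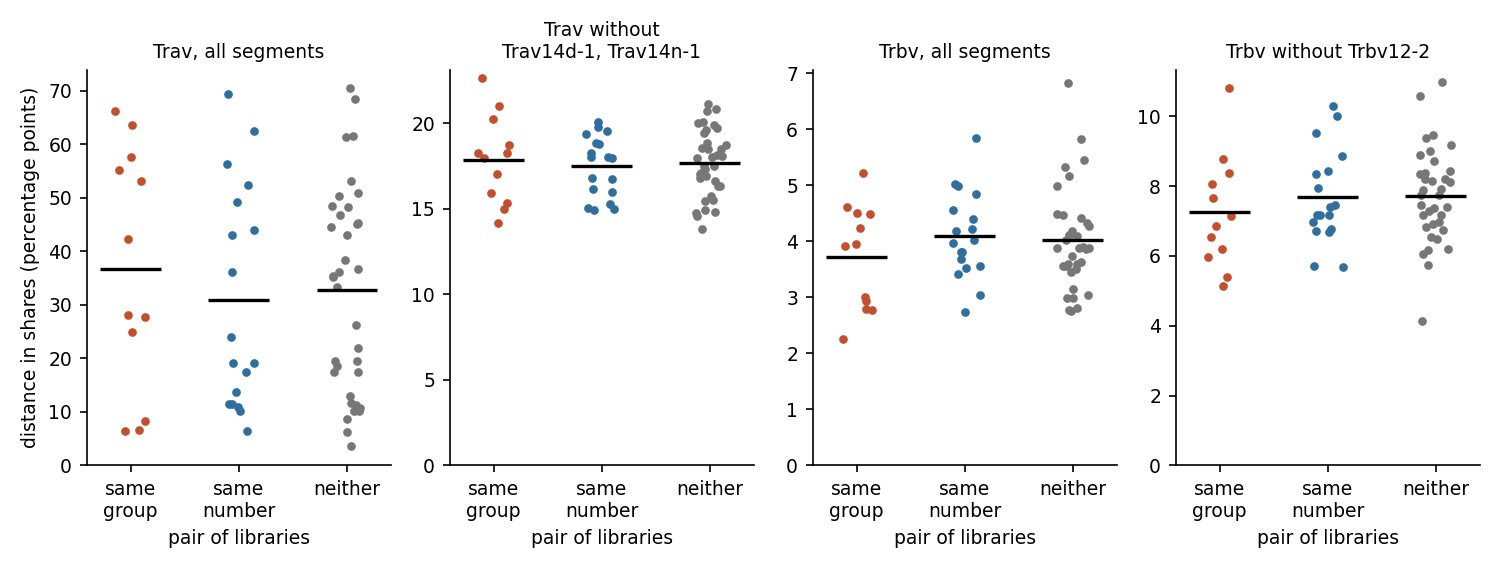
Distance in segment shares (percentage points) for all 66 pairs of libraries, split by whether the pair shared a group, shared only a replicate number or shared neither; black bars are means. The 3 kinds of pair overlap in all 4 panels, with means of 36.7, 30.9 and 32.8 for Trav and of 3.72, 4.09 and 4.02 for Trbv.

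The variance of single segments was divided between groups and replicates. On the level scale the median share of variance between the 4 groups was 55.1% over the 21 Trbv segments, 26.5% over the 79 Trav segments and 60.1% over all 13733 genes. On the share scale it was 27.0% for Trbv and 25.1% for Trav, beside 60.01% for all genes. Of the variance within groups, the replicate number held a median of 19.2% for Trbv and 20.2% for Trav, beside 22.4% for all genes. With few libraries some variance falls between groups and between replicate numbers by chance, and that level was not computed. These percentages alone therefore do not show that segment use followed the compound or the replicate.

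Few segments were called for a difference in share. With each family scaled to the same sum in every library, the comparison of EpA with DMSO called 2 of 100 segments, where 27.2% of all genes were called, and that of EpA + fatostatin with fatostatin called 0, where 29.3% were. In the latter 6 segments had an unadjusted p below 0.05, beside 5427 of 13733 genes. The share of Trbv12-2 was 56.5 ± 0.216% with DMSO and 56.7 ± 0.624% with EpA, a log2 difference of 0.00 with a 95% interval of -0.04 to 0.05, and 56.2 ± 1.83% with fatostatin and 58.1 ± 0.702% with both (SD, n = 3), a difference of 0.05 with an interval of -0.00 to 0.09 that was not called (adjusted p = 0.14, limma). The 3 libraries with both compounds had the highest Trbv12-2 shares of the 12, from 57.7% to 58.9%. The share of Trbv31 was 10.1 ± 0.245% with DMSO and 10.3 ± 0.673% with EpA, a log2 difference of 0.04 with an interval of -0.13 to 0.21. The Trav shares on this scale contain the 2 identical copies in the sum, and their median moved by 0.93 between DMSO and EpA, with 71 of 79 higher. All 3 EpA shares lay above all 3 DMSO shares for 19 of the 79 (24.1%), beside 21.8% of all genes. With the sums taken without the leading segments, an alternative chosen after the values were seen, the median moved by -0.08, with 33 higher and 46 lower. On that scale all 3 EpA shares lay above for 2 of the 79 and below for 4. Then 3 segments were called for EpA against DMSO and 1 for EpA + fatostatin against fatostatin, where 27.3% and 29.4% of all genes were.

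Trbv13-3 was the β segment whose share was called between EpA and DMSO. It held 1.94%, 1.90% and 1.73% of the Trbv FPKM in the DMSO libraries and 1.40%, 1.20% and 0.832% in the EpA libraries. The groups did not overlap, and all EpA values lay below all DMSO values on this scale for 2 of 21 Trbv segments and 20.7% of all genes. The log2 difference was -0.71 (95% interval -1.09 to -0.33, adjusted p = 0.011, limma), and the adjusted p stayed at or below 0.037 in all alternatives. Behind these shares were 70 to 79 reads with DMSO and 28 to 44 with EpA. With fatostatin it held 1.86%, 1.27% and 1.48%, and with both compounds 1.04%, 1.26% and 1.14%. Here only the lowest fatostatin library lay near the others, and the difference of -0.40 was not called (adjusted p = 0.11, limma). The difference between the EpA effects was 0.31 (adjusted p = 0.83, limma).

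The other segment called for EpA against DMSO was Trav6-6, with a difference of 3.37 (adjusted p = 0.018, limma). It had 51 reads in EpA replicate 1, 4 and 1 in the other EpA libraries, and at most 1 in each of the other 9. The difference was 2.15 without EpA replicate 1 and ranged up to 4.62 when another library was left out, and the call was lost without DMSO replicate 2 or 3. Every 50-base window of its transcript occurs in Trav6d-6. Without the leading segments in the sum its adjusted p was 0.054 (limma), and the segments called were Trbv13-3 (-0.70), Trav13-4-dv7 (-0.62) and Trav15-2-dv6-2 (-0.33). The 1 segment called on that scale for EpA + fatostatin against fatostatin was Trav16 (0.48, adjusted p = 0.049, limma).

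**Figure D5:**
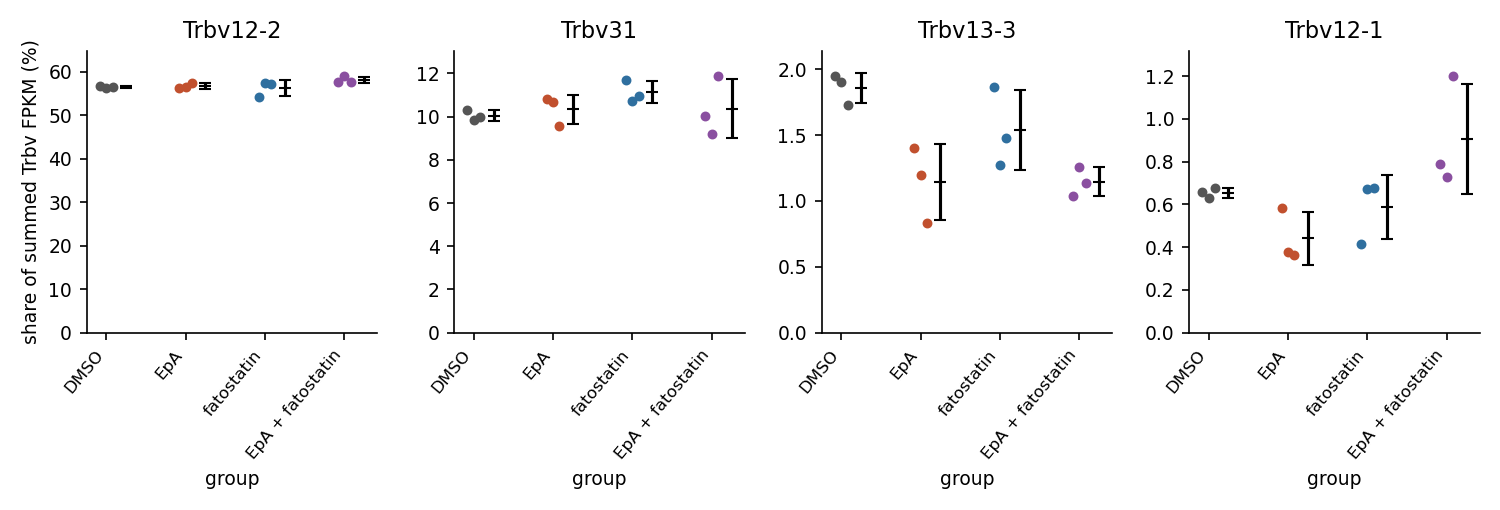
Share of the summed Trbv FPKM (%) held by Trbv12-2, Trbv31, Trbv13-3 and Trbv12-1 in each library (points), with mean and SD (bars, n = 3), by group; axes start at 0 and differ between panels. The shares of Trbv12-2 overlap between DMSO, EpA and fatostatin and lie above them with both compounds, and Trbv13-3 is lower in the 3 EpA libraries than in the 3 DMSO libraries.

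The second question was the effect of fatostatin, without and with EpA. On the level scale fatostatin against DMSO called 1 of 100 segments, Trav13-1, which fell by 0.66 (adjusted p = 0.043, limma), where 6.31% of all genes were lower and 7.69% higher. Its values were 3.96, 4.14 and 3.61 FPKM with DMSO and 2.18, 3.26 and 2.01 FPKM with fatostatin. These did not overlap, and all fatostatin values lay below all DMSO values for 4 of 79 Trav segments and 14.8% of all genes. The call was lost in 11 alternatives, among them each of the fits without DMSO replicate 1, 2 or 3, without fatostatin replicate 1 or 3, without EpA replicate 3 and without EpA + fatostatin replicate 1, and the highest adjusted p was 0.142. EpA + fatostatin against EpA called 3 segments higher and 0 lower, where 9.22% of all genes were higher and 6.79% lower. These were Trbv12-1, Trbv12-2 (0.11) and Trav11n. On the share scale fatostatin against DMSO called 0 segments (3 at an unadjusted p below 0.05, beside 3680 of 13733 genes), where 14% of all genes were called, and EpA + fatostatin against EpA called 4, where 16% were. Without the leading segments in the sums these counts were 0 (7 at an unadjusted p below 0.05, beside 3679 of 13733 genes) and 3, beside 14% and 16%. With them in the sums, all shares with both compounds lay below all EpA shares for 21 of 79 Trav segments (26.6%), beside 14.5% of all genes. Without them this held for 2 of 79. The interaction called 0 segments on either share scale beside 0.0437% of all genes, and 5 on each had an unadjusted p below 0.05, beside 1080 and 1083 of 13733 genes.

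Trbv12-1, the relative of the leading β segment, was called on both scales. Its level was 1.36, 0.903 and 0.850 FPKM with EpA and 1.996, 1.79 and 2.95 FPKM with both compounds, beside 1.90, 1.89 and 2.01 FPKM with DMSO and 1.27, 2.06 and 2.16 FPKM with fatostatin. The EpA libraries lay lowest, and only 1 fatostatin library was within their range. The difference between EpA + fatostatin and EpA was 1.04 in level (adjusted p = 0.0090) and 0.97 in share (adjusted p = 0.014, limma), and the latter p rose to 0.0554 and 0.0519 (limma) without EpA replicate 3 and without EpA replicate 2. Trbv12-1 had 14 to 47 reads per library. The call of Trbv12-2 was lost in 7 of 21 alternatives, among them the fits without EpA replicate 1 or 3 and without EpA + fatostatin replicate 1 or 2. Trav11n, a copy of the Trav11 segment annotated as a pseudogene, had 0 to 4 reads per library, and its call was lost in 10 of 20 alternatives, 5 of which leave out 1 library. Trbv14 was lower in share with both compounds than with EpA alone (-0.54, adjusted p = 0.029, limma), a call lost in 6 of 22 alternatives, 4 of which leave out 1 library (EpA replicates 1 and 2, EpA + fatostatin replicates 2 and 3). So were Trav6-6 (-3.49) and Trav6n-6 (-2.21). Without the leading segments in the sum their differences were -2.45 and -1.16 (adjusted p = 0.079 and 0.17, limma), and each call was lost in 6 of 21 alternatives. The call of Trav6-6 was lost without EpA replicate 2 and without EpA + fatostatin replicate 1 or 3, and its difference was -2.27 without EpA replicate 1 and -4.74 without EpA replicate 3. The call of Trav6n-6 was lost without EpA replicate 2 or 3 and without EpA + fatostatin replicate 2 or 3.

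Segments of invariant T cells were near or at the limit of detection. The 3 Trav11 segments, which natural killer T cells join to form their invariant α chain, had at most 4 reads in any library. Every window of the Trav11 and Trav11d transcripts, at the length used above, occurs in another gene. Their values are therefore uncertain, and the few reads on Trav11 and Trav11d do not show low use. Trav1, which mucosal-associated invariant T cells use, had 1 to 14 reads per library and a mean of 0.406 FPKM. Of the 22 segments annotated as pseudogenes, 7 were tested and 14 were not detected. In the Trav family the 52 segments without a copy letter held 82.6 of the FPKM outside the leading pair, with 6 not detected, whereas the 37 d copies held 7.21 FPKM, with 18 not detected, and the 32 n copies 8.50 FPKM, with 16 not detected. Since values of copied segments are uncertain, the low sums of the d and n copies do not show low use. The 9 genes of the V(D)J recombination list summed to 14.8 to 17.4 FPKM. Rag2 was at 0 in all libraries, Rag1 at no more than 0.0593 FPKM and Dntt, the enzyme that adds bases at the joints, at 0.866 to 1.54 FPKM. Prkdc was at 4.97 to 6.38 FPKM, and Nhej1, Xrcc4, Lig4 and Dclre1c lay between 1.46 and 3.44 FPKM. Of the 6 tested, 1 was higher and 1 lower in the comparison of EpA with DMSO, and 0 higher and 1 lower in that of EpA + fatostatin with fatostatin, beside 14.3% and 13.1%, and 16.2% and 13.3%, of all genes higher and lower.

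Over the 12 libraries, the genes other than V segments whose log2 level was most like that of the Trbv sum were AW112010 (Pearson r = 0.992), Fam107b (0.989) and Frmpd1 (0.989), among the 10247 genes averaging 1 FPKM or more. For the Trav sum, which followed the identical pair, they were Mms19 (0.875), Acaa2 (0.827) and Dtx3 (0.810). These are the highest of many and are descriptions, and the libraries share their treatment groups.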

How the data were processed

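RNA of 12 Th9 samples, 3 in each of 4 groups, was sequenced in paired ends from TruSeq libraries. Per the study's methods trimming by Trim Galore, alignment by HISAT2 against GRCm38 and counting by featureCounts preceded the FPKM values that the authors deposited. The treatment of multi-mapping reads, the strand setting and the annotation release are not given in the sources used here.

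The table held 32352 lines for 32051 genes, and 301 repeated lines had the values of the first and were dropped. Gene lengths and V exons were read from GENCODE M21 transcripts (GRCm38). FPKM steps gave whole reads, within 0.05, for 98.4% to 98.6% of values per library, and depth was 36019739 to 43656682 reads on genes. The number of libraries and reads sets the precision, and 3 reads or fewer in every library were read as not detected.

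Genes averaging 0.1 FPKM or more (13733) were fitted with limma 3.58.1 in R 4.3.3, as 4 group means of log2(FPKM + 0.1) with a trend in the empirical Bayes step, two-sided, with Benjamini-Hochberg adjustment over all genes. Fold changes on this scale understate the change of low genes. The filter left out Trav5n-4 (0.0479 FPKM) and Trbv6 (0.0686 FPKM) and kept Trav9n-4 (0.112 FPKM) and Trav4n-4 (0.116 FPKM) at its edge. For shares, each family was first scaled to the same sum in every library. The code was tested on simulated data. Named segments are the 10 of highest mean share in each family, those called with a fold of at least 1.5 on either scale, Trav11, Trav1 and Trbv31, and the other called segments were named after their values were seen. Members and gene lists were chosen with earlier results of these data known. The main fit did not pair samples by replicate number, since the sources used here state no pairing. Alternatives changed the pseudocount, minimum, scaling, trend, replicate block and libraries, or used voom on the recovered reads. Trac, Trbc1 and Trdc were not analysed here.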

Additional observations from a re-analysis of the deposited data

How the results depend on the processing

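No called difference of a named segment changed direction under the alternatives run. The median share difference of the 79 Trav segments between EpA and DMSO did, from 0.93 (71 higher, 8 lower) to -0.08 (33 higher, 46 lower) with the family sums taken without the leading segments. The interaction called 0 segments in all alternatives run. On the level scale 11 segments were called for EpA against DMSO, 6 with voom on the recovered reads and 8 to 15 when 1 library was left out, and 11 for EpA + fatostatin against fatostatin, 8 to 15 when 1 library was left out. With voom the latter lost the calls of Trav15-1-dv6-1, Trav15-2-dv6-2, Trbv13-2 and Trbv14 (adjusted p = 0.0505 for Trbv14, limma). Among the calls that EpA against DMSO lost with voom was Trbv16 (adjusted p = 0.0522, limma). EpA + fatostatin against EpA called 3, and 1 with no trend or with voom, and 2 to 5 when 1 library was left out (5 without fatostatin replicate 2). Fatostatin against DMSO called 1, but 0 with no minimum or no trend, 3 with only the compared groups in the fit, and 0 to 3 when 1 library was left out (0 without any of the DMSO libraries, EpA replicate 3 or fatostatin replicate 3, 2 without fatostatin replicate 1 or EpA + fatostatin replicate 2, and 3 without EpA + fatostatin replicate 3). On the share scale EpA against DMSO called 2, with 1 at a minimum of 1 FPKM, 8 with only the compared groups, 8 with voom, and 1 to 5 when 1 library was left out (1 without DMSO replicate 2, 4 without EpA + fatostatin replicate 1, 5 without EpA + fatostatin replicate 2). EpA + fatostatin against EpA called 4, with 2 at a minimum of 1 FPKM and 0 to 7 when 1 library was left out (0 without EpA replicate 2, 2 without EpA replicate 3 or EpA + fatostatin replicate 2 or 3, 7 without fatostatin replicate 1). EpA + fatostatin against fatostatin called 0, with 1 at a minimum of 1 FPKM, 1 with voom, 1 with the family sums taken without the leading segments, an alternative chosen after seeing the data, and 0 to 4 when 1 library was left out (4 without EpA + fatostatin replicate 1, 3 without EpA + fatostatin replicate 3 or fatostatin replicate 3, and 1 without DMSO replicate 3, EpA replicate 1 or 3, EpA + fatostatin replicate 2 or fatostatin replicate 1 or 2). Fatostatin against DMSO called 0, with 3 with only the compared groups and 0 to 1 when 1 library was left out (1 without EpA replicate 1, EpA + fatostatin replicate 3 or fatostatin replicate 1). The causes were not tested. Share calls thus depend on the fit, and segments with few reads limit what can be seen.

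With the replicate number as a replicate block, EpA against DMSO, EpA + fatostatin against fatostatin, fatostatin against DMSO and EpA + fatostatin against EpA called 11, 13, 1 and 4 segments on the level scale and 3, 0, 0 and 6 on the share scale. Deviations of same-numbered libraries correlated at -0.0472 to 0.0744 over 18 pairs, and those of other-numbered libraries at -0.0859 to 0.0492 over 36 pairs. Of the 12 libraries, 7 correlated best with a library of their own number. These values do not settle whether the numbers pair the samples, and no source used here says so. The fit with only the compared groups was not run for the interaction, which needs all groups.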
